A study of Mus musculus with 3 samples.

Results

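The long terminal repeats (LTRs) of ETn elements were examined copy by copy in spermatogonia, together with the DNA up to 5 kb on either side. ETn, the early transposon, is a mouse LTR retrotransposon. Copies were chosen by sequence alone, as blastn matches in the mm10 genome to the RLTRETN_Mm amplicon of the study, with at least 90% identity over at least 90% of its length, on the autosomes. There were 354 such copies among the 5594 autosomal copies of 5 retrotransposon sequences that were located in the same way, with overlapping matches joined. Of the 354 copies, 149 had at least 5 methylation calls in each library and 70 had at least 10.

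LTR retrotransposons carry an LTR at each end, and the LTR holds the promoter from which the element is transcribed. ETn elements have no coding capacity of their own and are moved by the proteins of the related MusD elements, whose LTRs are alike. When the 2 LTRs of an element recombine, the body is lost and a single LTR is left behind. In male germ cells, DNA methylation is erased and then laid down again before birth, by a machinery in which DNMT3L is a cofactor of the *de novo* methyltransferases. At part of the retrotransposons this step is guided by piRNAs, small RNAs whose production needs PLD6, a protein of the mitochondrial outer membrane.

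Whole-genome bisulfite sequencing by post-bisulfite adaptor tagging (PBAT) was examined for WT, *Pld6* KO and *Dnmt3l* KO spermatogonia, with 1 library per genotype. All 3 groups were C57BL6/J mice at postnatal day 7, and the cells had been sorted with an antibody to EpCAM. Both mutant lines had been backcrossed to C57BL/6J, and the mutations are present in every cell of the animal. The labels do not say whether the WT library came from *Pld6*+/+, *Pld6*+/- or *Dnmt3l*+/- animals, all of which the study's methods count as WT, nor how many animals gave a library. With 1 library per genotype genotypes were not tested against each other, and genotype and library cannot be told apart.

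The sequences below are given because copies that are nearly the same in sequence had very different methylation levels in *Pld6* KO. They are written 5′ to 3′ in the orientation of the LTR, with CpG dinucleotides, the sites that can be methylated, in capitals. The amplicon of 297 bp holds 18 CpG sites. The copies are named by their mm10 position. The copy at chr13:23170161-23170438 (minus strand) and the one at chr6:7027286-7027563 (minus strand) differed at 3 of 278 bases, and another copy, at chr1:89101998-89102275 (minus strand), differed from the chr6:7027286-7027563 copy at 4. The copies at chr16:16946865-16947159 (minus strand) and chr6:100471229-100471523 (plus strand) had the fullest match to the amplicon of the copies named here, with 95.6% and 95.3% identity, and differed from each other at 11 of 295 bases.
RLTRETN_Mm amplicon: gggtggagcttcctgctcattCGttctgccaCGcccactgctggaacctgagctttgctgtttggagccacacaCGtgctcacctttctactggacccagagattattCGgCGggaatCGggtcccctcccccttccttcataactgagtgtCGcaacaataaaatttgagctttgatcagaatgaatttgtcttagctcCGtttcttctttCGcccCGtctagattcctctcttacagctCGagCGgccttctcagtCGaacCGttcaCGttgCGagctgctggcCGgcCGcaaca
chr13:23170161-23170438: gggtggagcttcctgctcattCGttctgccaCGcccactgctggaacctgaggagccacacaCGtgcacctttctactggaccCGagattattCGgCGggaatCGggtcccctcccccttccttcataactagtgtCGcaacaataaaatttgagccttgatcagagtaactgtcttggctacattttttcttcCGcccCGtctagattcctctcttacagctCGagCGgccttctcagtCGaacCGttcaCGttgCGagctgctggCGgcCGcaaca
chr6:7027286-7027563: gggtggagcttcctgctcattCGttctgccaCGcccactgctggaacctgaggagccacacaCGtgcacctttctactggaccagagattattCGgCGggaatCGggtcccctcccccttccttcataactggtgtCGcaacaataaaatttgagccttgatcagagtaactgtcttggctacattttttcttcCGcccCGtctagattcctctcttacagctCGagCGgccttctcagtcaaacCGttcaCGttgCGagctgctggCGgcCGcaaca
chr1:89101998-89102275: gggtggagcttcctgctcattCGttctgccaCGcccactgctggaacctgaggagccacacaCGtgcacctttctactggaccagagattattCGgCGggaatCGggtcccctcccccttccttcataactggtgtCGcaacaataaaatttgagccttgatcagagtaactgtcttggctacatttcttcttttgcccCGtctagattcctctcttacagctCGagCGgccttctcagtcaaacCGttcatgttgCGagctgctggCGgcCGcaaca
chr16:16946865-16947159: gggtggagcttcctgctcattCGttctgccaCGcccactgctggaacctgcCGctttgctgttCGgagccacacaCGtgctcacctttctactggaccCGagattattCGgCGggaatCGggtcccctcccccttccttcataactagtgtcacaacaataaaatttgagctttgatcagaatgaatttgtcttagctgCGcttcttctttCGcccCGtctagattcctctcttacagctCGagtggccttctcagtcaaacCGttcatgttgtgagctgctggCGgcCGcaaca
chr6:100471229-100471523: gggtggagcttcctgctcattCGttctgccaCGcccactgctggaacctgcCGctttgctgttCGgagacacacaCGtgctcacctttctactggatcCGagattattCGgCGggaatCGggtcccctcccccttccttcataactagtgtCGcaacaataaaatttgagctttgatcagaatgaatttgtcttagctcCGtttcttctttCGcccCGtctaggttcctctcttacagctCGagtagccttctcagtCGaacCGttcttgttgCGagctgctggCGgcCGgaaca

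In *Pld6* KO, 0 of 27 calls were methylated in the chr13:23170161-23170438 copy and 25 of 28 in the chr6:7027286-7027563 copy, that is, levels of 0 (95% Wilson interval 0 to 0.125) and 0.893 (0.728 to 0.963). In WT the calls were 14 of 14 and 6 of 10. The chr1:89101998-89102275 copy had 10 of 10 methylated calls in WT and 0 of 48 in *Pld6* KO. The chr16:16946865-16947159 copy had 2 of 40 in *Pld6* KO and the chr6:100471229-100471523 copy 87 of 111, a level of 0.784 (0.698 to 0.850), while in WT both were highly methylated (28 of 29 and 32 of 34). Within each contrast (the chr13 or chr1 copy against chr6:7027286-7027563, and chr16 against chr6:100471229-100471523), the *Pld6* KO intervals do not overlap. They treat calls of the same read as independent and can be too narrow, since few reads may lie behind a level. In *Pld6* KO the calls lay at 8 sites with 2 to 4 calls each (chr13), 7 with 2 to 5 (chr6:7027286-7027563) and 6 with 8 (chr1). The chr13 copy is a 3′ LTR of a pair, the chr6:7027286-7027563 copy a 5′ LTR and the chr1 copy lone. The contrasted copies were singled out after their values had been seen.

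WT, *Pld6* KO and *Dnmt3l* KO had 42893386, 62835995 and 18874945 calls on the autosomes, and autosomal methylation levels of 0.704, 0.724 and 0.303. A level is the share of methylated calls among all calls at the CpG sites of a region, added up over the sites. In *Pld6* KO a run of 42 CpG sites in *Pld6* had no calls (104 calls there in WT), and in *Dnmt3l* KO a run of 53 sites in *Dnmt3l* had none (88 in WT), as the labels say. As a check of the sorted cells, the starts of *Peg3*, *Mest* and *Kcnq1ot1*, imprinted genes that are unmethylated in male germ cells, had levels of 0 to 0.122 in the 3 libraries. The paternally methylated region upstream of *H19* had 0.859, 0.884 and 0.148. The start of *Snrpn*, planned for the same check, had too few calls to be used. Methylated there were 2 of 2 calls in WT and 4 of 7 in *Pld6* KO, unlike at the other starts, and *Dnmt3l* KO had 0 calls.

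WT spermatogonia had heavily methylated ETn LTR copies, whereas the level was intermediate in *Pld6* KO and low in *Dnmt3l* KO. Pooled over the 354 copies, WT had a level of 0.792 (3930 calls, 95% Wilson interval 0.779 to 0.804). *Pld6* KO had 0.398 (8528 calls, 0.387 to 0.408) and *Dnmt3l* KO 0.132 (2618 calls, 0.119 to 0.145). The *Pld6* KO level was lower than that of WT by 0.394 (95% Newcombe interval 0.378 to 0.410), and the *Dnmt3l* KO level was lower than that of *Pld6* KO by 0.266 (0.249 to 0.282). Of the 5337 CpG sites of the copies, 32.3%, 43.1% and 27.8% had calls in the respective libraries. Intervals cover counting error only, and calls at neighbouring sites often come from 1 read, so that they can be too narrow.

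The intermediate pooled level of *Pld6* KO covered copies with low, middle and high levels. Among the 149 copies with at least 5 calls in each library, the level in *Pld6* KO ranged from 0 to 1 with a median of 0.328, and quartiles of 0.133 and 0.659. In WT the copies also ranged from 0 to 1, but with a median of 0.857, and 128 copies were at 0.6 or above. In *Dnmt3l* KO the range was again 0 to 1, the median was 0.0526, and 72 copies had no methylated call. At or below 0.2 were 5 WT, 53 *Pld6* KO and 107 *Dnmt3l* KO values. In *Pld6* KO 51 copies lay between 0.2 and 0.6, with a pooled level of 0.376, and 45 were at 0.6 or above. In *Dnmt3l* KO 9 copies reached 0.6. The 3 libraries therefore overlap in range, and WT and *Pld6* KO differ in where most copies lie.

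**Figure D1:**
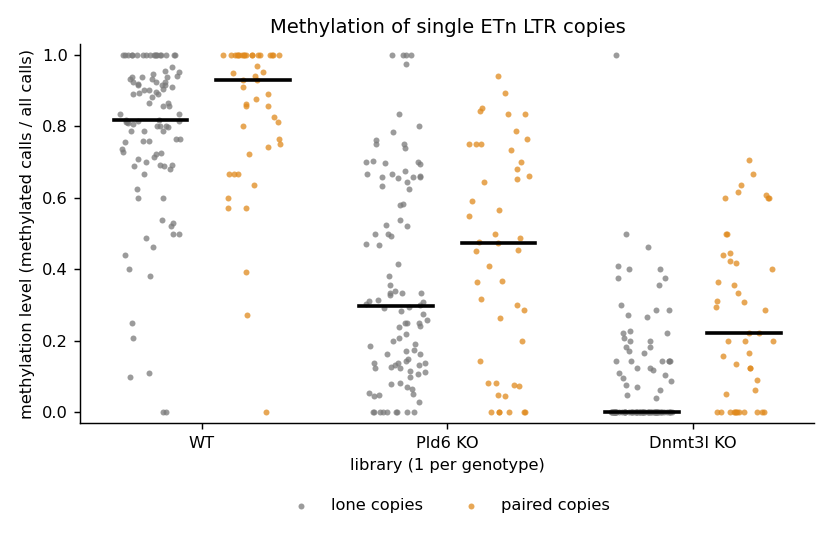
Methylation level (methylated calls divided by all calls) of each of the 149 ETn LTR copies with at least 5 calls in every library, for lone copies (grey) and copies with a partner LTR nearby (orange), with black bars for medians. WT copies crowd near the top and *Dnmt3l* KO copies near 0, whereas *Pld6* KO copies are spread from 0 to 1.

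Of the 3 libraries, *Pld6* KO had the largest standard deviation between copies, 0.292, beside 0.226 for WT and 0.198 for *Dnmt3l* KO (n = 149 copies each). Counting error alone gives 0.0769, 0.0935 and 0.0999, and with this share taken off, 0.281, 0.206 and 0.171 remained. Copies of a library are not replicates of a genotype, so that these values describe the spread within 1 library each.

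The spread in *Pld6* KO did not go with the identity to the amplicon. The highest identity of any copy was 95.6%, so that the class from 96% upwards was empty. In the class from 90 to under 93% (127 copies with enough calls) WT, *Pld6* KO and *Dnmt3l* KO had standard deviations of 0.238, 0.289 and 0.207. In the class from 93 to under 96% (22 copies) these were 0.116, 0.311 and 0.123, so that the closer matches had the smaller spread in WT and *Dnmt3l* KO. With identity counted over aligned bases only, gaps left out, the order was the other way. Copies under 96% (42) had standard deviations of 0.161 in WT and 0.124 in *Dnmt3l* KO, and the classes above 0.232 to 0.259 and 0.177 to 0.250. The *Pld6* KO value lay between 0.284 and 0.301 in all 4 of these classes. Across the 149 copies, the *Pld6* KO level had Pearson's r = 0.0356 with identity and r = -0.0723 with the number of CpG sites. Much of the lost identity came from gaps: between 305 and 320 of the 354 copies lacked bases from a stretch of 12, at positions 53 to 64 of the amplicon. This shows in the sequences above, where the chr13, chr1 and chr6:7027286-7027563 copies go straight from cctgag to gagcc, while the chr16 copy holds the stretch. Copies were also split by the number of gap bases anywhere in their alignment, which is not the same as lacking this stretch. The 315 copies with more gap bases had a *Pld6* KO level of 0.387 and the 39 with fewer had 0.450 (0.424 to 0.475).

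A copy was called decreased where its level was below that of WT by at least 0.3. In *Pld6* KO, 87 of the 149 copies were decreased (58.4%, 95% Wilson interval 50.4% to 66.0%). Among 1040998 autosomal tiles of 297 bp with at least 5 calls in each library, the share was 3.77%. In *Dnmt3l* KO, 133 of the 149 copies were decreased (89.3%, 83.3% to 93.3%), beside 63.7% of the tiles. The 2 shares of copies thus stand above very different backgrounds. The median decrease of a copy was 0.430 for *Pld6* KO and 0.699 for *Dnmt3l* KO. The interval of WT minus knockout lay above 0 in 99 copies for *Pld6* KO and 126 for *Dnmt3l* KO, and below 0 in 5 and 0 copies. Of increases of at least 0.3 there were 3 and 0. A decrease of 0.3 needs a WT level of at least 0.3, which 141 of the 149 copies had.

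Among the retrotransposon sequences located in the same way, the ETn LTR lay between L1Md_A, the 5′ region of an active LINE family, and the other LTRs. The share of copies decreased in *Pld6* KO was 92.5% of 441 for L1Md_A, 58.4% for the ETn LTR, 35.3% of 34 for the IAP LTR (95% Wilson interval 21.5% to 52.1%), 11.8% of 34 for the LTR of MMERVK10C and 5.41% of 37 for that of MERVL. The interval of the ETn LTR (50.4% to 66.0%) overlapped that of the IAP LTR and none of the other 3. In *Dnmt3l* KO the shares lay closer together, from 83.8% (MERVL) to 95.7% (L1Md_A). The standard deviation between copies in *Pld6* KO, with counting error taken off, was 0.281 for the ETn LTR and 0.148 to 0.217 for the others. Pooled levels also differed, with 0.398 for the ETn LTR and 0.221 (L1Md_A) to 0.799 (MERVL) for the others. Only copies with at least 5 calls in each library count here. These were 149 of 354 for the ETn LTR, 441 of 1871 for L1Md_A and 34 of 1398 for the IAP LTR. For MMERVK10C they were 34 of 246 and for MERVL 37 of 1725, so that the values may not stand for whole families. The 1871 copies of L1Md_A are regions in which overlapping matches, 4310 in number, were joined. They can be longer than a single match, whereas no LTR matches were joined.

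**Figure D2:**
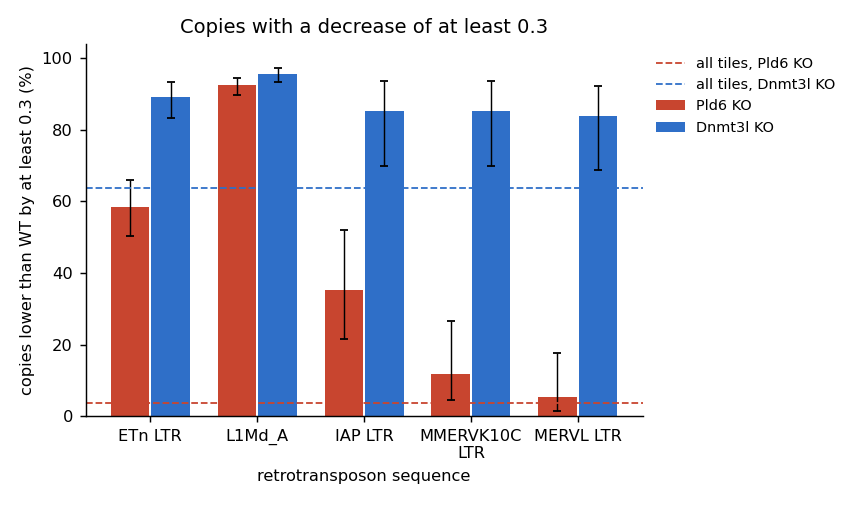
Percent of copies lower than WT by at least 0.3 in *Pld6* KO (red) and *Dnmt3l* KO (blue) for 5 retrotransposon sequences, with 95% Wilson intervals and with dashed lines for all autosomal tiles of 297 bp (3.77% and 63.7%). In *Pld6* KO the ETn LTR stands at 58.4%, below L1Md_A and above the other LTRs, while in *Dnmt3l* KO all 5 are above 80%. Only copies with at least 5 calls in every library are counted.

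Within the LTR the decrease was found along the whole amplicon. Calls in the copies were assigned to the 18 CpG positions of the amplicon. At every position the pooled level was highest in WT (0.627 to 0.952), lower in *Pld6* KO (0.242 to 0.541) and lowest in *Dnmt3l* KO (0.0230 to 0.265). The lowest *Pld6* KO level was at position 201 (31 of 128 calls, 95% Wilson interval 0.176 to 0.323), and the highest at position 213 (73 of 135 calls, 0.457 to 0.623), only 12 bp away. At position 22, near the 5′ end, the level was 0.627 in WT and 0.312 in *Pld6* KO. At position 291, near the 3′ end, it was 0.863 in WT and 0.424 in *Pld6* KO. Depth was uneven, with 995 calls in *Pld6* KO at position 275 and 82 at position 153, so that the 3′ end of the LTR carries most of the weight in the pooled values.

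**Figure D3:**
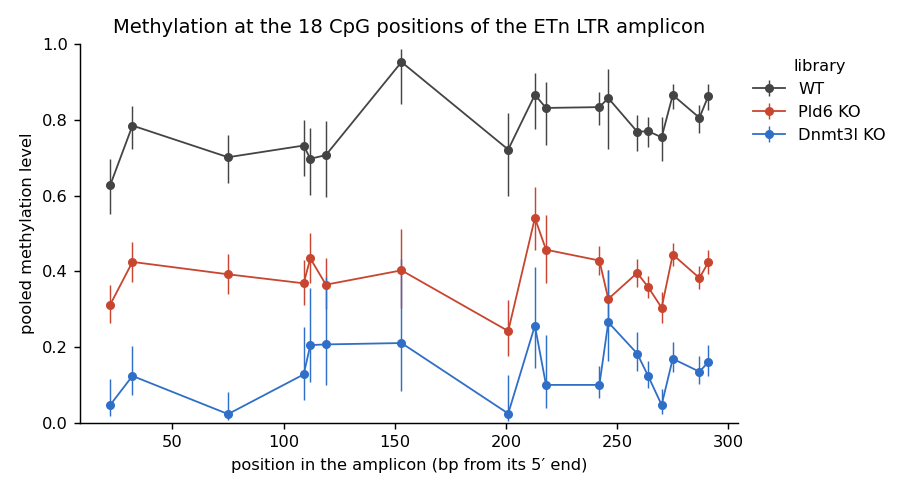
Pooled methylation level, with 95% Wilson intervals, at the 18 CpG positions of the amplicon, plotted by distance from its 5′ end in bp, for the 3 libraries. The 3 lines keep their order at every position, with *Pld6* KO between 0.242 and 0.541, though the intervals of the 2 knockouts overlap where calls are few.

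Outside the LTR, the decrease in *Pld6* KO fell off within about 2 kb on both sides. That in *Dnmt3l* KO also became smaller with distance but was still large from 2 to 5 kb. Each CpG site was given to its nearest copy, and sites inside any of the copies were left out. Downstream in the orientation of the LTR, *Pld6* KO lay below WT by 0.346 (95% Newcombe interval 0.321 to 0.371) up to 0.5 kb, 0.0903 (0.0764 to 0.104) from 0.5 to 2 kb and from 2 to 5 kb WT minus *Pld6* KO was -0.0176 (-0.0296 to -0.00564). Upstream WT minus *Pld6* KO was 0.217 (0.185 to 0.249), 0.0646 (0.0491 to 0.0800) and 0.00451 (-0.00651 to 0.0155) over the same distances. The level in *Pld6* KO rose from 0.479 within 0.5 kb downstream to 0.703 from 0.5 to 2 kb. For *Dnmt3l* KO the difference from WT was 0.673, 0.565 and 0.471 downstream and 0.608, 0.595 and 0.517 upstream.

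Next to lone copies the fall-off could be followed in finer steps. In steps of 100 bp downstream, the *Pld6* KO level was 0.334, 0.439, 0.516, 0.534 and 0.615, and in the step from 0.5 to 1 kb it was 0.689. The WT level in the same steps stayed between 0.785 and 0.834. Downstream of the 5′ LTR of a pair lies the body of the element, and there the difference between WT and *Pld6* KO was 0.365 up to 0.5 kb, 0.186 (0.160 to 0.211) from 0.5 to 2 kb and 0.0929 (0.0329 to 0.151) from 2 to 5 kb. Downstream of the 3′ LTR, in the DNA next to the element, it was 0.328, 0.0807 and 0.00287. Upstream of the 3′ LTR, also inside the element, it was 0.154 (0.0229 to 0.272), 0.133 (0.0922 to 0.172) and -0.00887 (-0.0661 to 0.0466). At 0.5 to 2 kb, the value inside the element next to the 5′ LTR thus lay above that outside the 3′ LTR (0.0522 to 0.108), whereas the interval of the one inside next to the 3′ LTR overlapped it.

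**Figure D4:**
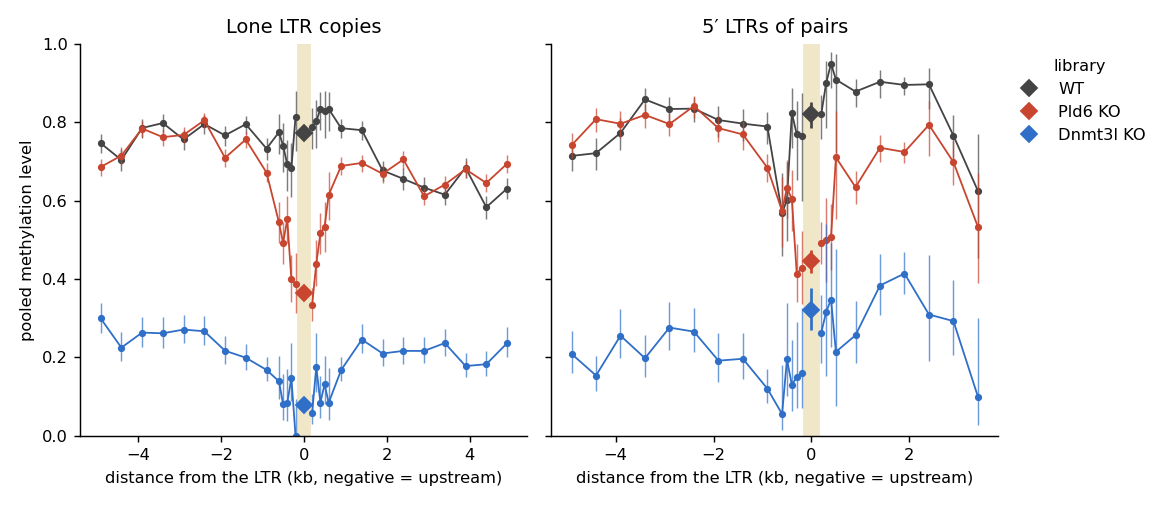
Pooled methylation level by distance from the LTR in kb (negative, upstream) for lone copies and for the 5′ LTRs of pairs, in the 3 libraries, with 95% Wilson intervals. The diamond in the shaded band is the level inside the LTR, and steps with under 10 calls are left out. *Pld6* KO dips at the LTR and returns to the WT line within about 2 kb of lone copies, while *Dnmt3l* KO is low throughout.

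A copy was called paired when its neighbour on the same strand started 3 to 9 kb away, as the 2 LTRs of a complete element would, and lone otherwise. There were 87 pairs (174 copies) and 180 lone copies. The spacing was under 6.5 kb in 32 pairs, with a median of 5221 bp, and larger in 55, with a median of 7135 bp. The 2 LTRs of a pair had a median identity of 99.3% and were identical in 21 pairs. Of the CpG sites, 42.5% were covered in lone copies and 22.4% in paired ones in WT, and 102 lone and 47 paired copies had enough calls. The part of this coverage difference in what follows was not tested.

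Paired copies had higher levels than lone copies in each library, and the difference was largest in *Dnmt3l* KO. For WT, *Pld6* KO and *Dnmt3l* KO, the paired copies had levels of 0.836, 0.453 and 0.232, and the lone copies 0.773, 0.364 and 0.0792. The excess of paired over lone copies was 0.0638 in WT (95% Newcombe interval 0.0369 to 0.0894). It was 0.0885 (0.0670 to 0.110) with *Pld6* KO and 0.153 (0.123 to 0.184) with *Dnmt3l* KO. In *Dnmt3l* KO 60 of the 102 lone copies but 12 of the 47 paired copies, all of them 3′ LTRs, had no methylated call. The share decreased in *Pld6* KO, by contrast, was 57.8% of lone and 59.6% of paired copies, with intervals of 48.1% to 67.0% and 45.3% to 72.4%. In *Dnmt3l* KO it was 92.2% and 83.0%.

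In WT the 5′ LTRs of pairs had a level of 0.821 and the 3′ LTRs 0.848, and the interval of the difference included 0 (-0.0702 to 0.0157). With *Pld6* KO the levels were 0.446 and 0.457 (-0.0472 to 0.0255). With *Dnmt3l* KO the 5′ LTRs had 0.320 and the 3′ LTRs 0.192, a difference of 0.129 (0.0677 to 0.192). Of the CpG sites, 12.4% were covered in 5′ and 27.2% in 3′ LTRs in *Dnmt3l* KO. Enough calls were present in 16 and 31 copies, so that the 2 sides are in part LTRs of different elements. The *Dnmt3l* KO difference lay in the closely spaced pairs, where the 5′ LTRs had 0.426 (101 calls, 7 copies with enough calls) and the 3′ LTRs 0.0922 (293 calls, 10 copies). Of the 43 methylated calls in these 5′ LTRs, 11 came from the chr6:7027286-7027563 copy and 14 from that at chr14:44350152-44350431. In the widely spaced pairs the values were 0.262 and 0.282. In *Pld6* KO the order depended on the spacing, with 0.528 in the 5′ and 0.410 in the 3′ LTRs of closely spaced pairs, and 0.403 and 0.495 in those of widely spaced ones. The 2 LTRs of an element could be compared directly in 7 pairs. In *Pld6* KO the 3′ LTR had the higher level in 5 of them. At the element with LTRs at chr17:57584799-57585080 and chr17:57588875-57589155, 2 of 26 calls were methylated in the 5′ LTR and 23 of 39 in the 3′ LTR. At chr13:23176915-23177192 and chr13:23170161-23170438 both LTRs were low, with 2 of 24 and 0 of 27. At chr18:4532488-4532767 and chr18:4539618-4539897 the calls were 28 of 88 in the 5′ and 35 of 50 in the 3′ LTR. At chr7:108556338-108556617 and chr7:108549214-108549493 they were 24 of 80 and 15 of 23. The 2 LTRs thus differed at the chr17, chr18 and chr7 elements, where the intervals do not overlap. At the chr13 element both were low, and there and in the remaining pairs the intervals overlap.

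Copies that kept methylation in *Pld6* KO also tended to have more in *Dnmt3l* KO. Across the 149 copies the levels in both knockouts had Pearson's r = 0.517 and Spearman's rho = 0.475. The points are copies of the same libraries with few calls each, and the value is a description. The 53 copies at or below 0.2 in *Pld6* KO had a pooled *Dnmt3l* KO level of 0.0490 (95% Wilson interval 0.0358 to 0.0668), and the 45 copies at or above 0.6 had 0.261 (0.225 to 0.299). In WT the levels of these copies were 0.785 and 0.823. Lone copies made up 39 of the 53 and 28 of the 45. The level of a copy in *Pld6* KO went with that of its own flanks up to 0.5 kb (r = 0.661, 119 copies) and much less with those from 0.5 to 2 kb (r = 0.173, 147 copies). Within 0.5 kb downstream, the flanks of the low copies had 0.237 in *Pld6* KO and those of the high copies 0.688, against 0.793 and 0.841 in WT. Farther downstream the 2 groups also differed in WT, with 0.701 and 0.826 from 0.5 to 2 kb and 0.510 and 0.758 from 2 to 5 kb. Upstream the WT values were 0.805 and 0.770, and 0.719 and 0.731, over these distances. Inside genes lay 18 of the 53 low copies and 7 of the 45 high ones. Single reads can cross the edge of the LTR, so that a copy and its nearest flank can share reads. The part of this in these values was not tested.

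**Figure D5:**
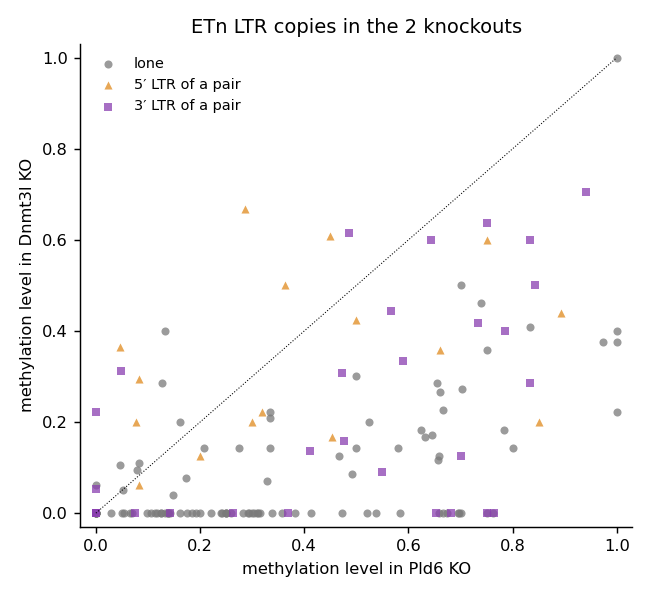
Methylation level in *Dnmt3l* KO (vertical) against that in *Pld6* KO (horizontal) for the 149 ETn LTR copies, by whether the copy is lone (circles) or the 5′ (triangles) or 3′ (squares) LTR of a pair. Most copies lie below the dotted line of equal levels, and levels of 0.6 and above in *Dnmt3l* KO are reached by 8 paired copies and 1 lone copy.

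The 70 copies that had 10 or more calls in every library were ranked by the difference between WT and *Pld6* KO. The largest differences belonged to the copies at chr1:89101998-89102275 (1), chr13:23170161-23170438 (1) and chr16:16946865-16947159 (0.916), described above, and to 2 more. The chr1:89101998-89102275 copy overlaps the predicted gene *Gm34331* and *Sh3bp4*, an endocytosis gene, and touches exon sequence of at least 1 of them. The chr16:16946865-16947159 copy is intergenic. At chr14:26672135-26672429, 2289 bp from the start of *Pde12*, which encodes a mitochondrial phosphodiesterase, methylated calls were 20 of 20, 7 of 60 and 0 of 11 in WT, *Pld6* KO and *Dnmt3l* KO. This LTR was fully methylated in WT although its flanks from 0.5 to 2 kb had a level of only 0.125 (56 calls). At chr17:32376239-32376516, a 3′ LTR antisense to *Wiz*, a zinc finger gene, and overlapping its exon sequence, these were 20 of 21, 6 of 80 and 0 of 11. Its flanks from 0.5 to 2 kb had 0.969 in WT and 0.691 in *Pld6* KO.

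At the other end of the ranking, 5 copies had a level in *Pld6* KO that was no lower than in WT. For the chr6:7027286-7027563 copy, an antisense 5′ LTR in an intron of *Sdhaf3*, an assembly factor of succinate dehydrogenase, WT minus *Pld6* KO was -0.293 (95% Newcombe interval -0.589 to -0.00842). The 10 WT calls of this copy lay at 5 sites with 2 calls each, so that they may come from few reads. The interval, which only just leaves out 0, can therefore be too narrow. This copy also kept methylation in *Dnmt3l* KO, with 11 of 25 calls. At chr8:23600370-23600652, WT had 21 of 43 methylated calls, *Pld6* KO 58 of 90 and *Dnmt3l* KO 5 of 29. At chr14:45816614-45816910 the calls were 18 of 41, 17 of 36 and 0 of 14. The copies at chr1:147964674-147964953 (1 of 10 in WT, 7 of 27 in *Pld6* KO) and chr1:110499881-110500160 (2 of 18 and 7 of 29) had little methylation in any library. The intervals of the last 4 differences include 0. All 5 had WT levels of 0.6 or lower, below the WT median of 0.857. A ranking by WT minus *Pld6* KO itself favours copies with a low WT level at this end.

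Ranked by the difference between WT and *Dnmt3l* KO, 4 copies shared the largest value of 1. They were the chr1:89101998-89102275 copy, the *Pde12* copy, chr17:33764507-33764803, 4021 bp from the start of *Rab11b*, a small GTPase gene, and chr13:92790061-92790353, antisense in an intron of *Thbs4*, a thrombospondin gene. In WT, *Pld6* KO and *Dnmt3l* KO, the *Rab11b* copy had 23 of 23, 5 of 36 and 0 of 26 methylated calls. The *Thbs4* copy had 16 of 16, 21 of 55 and 0 of 10. The smallest difference belonged to the 5′ LTR at chr14:44350152-44350431, in an intron of *Gm5930*, with 8 of 14, 18 of 40 and 14 of 23 methylated calls. It was followed by the chr1:147964674-147964953 and chr1:110499881-110500160 copies, which had 0 of 13 and 0 of 12 in *Dnmt3l* KO.

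By RefSeq, 287 of the 354 copies lay between genes, 54 in introns and 13 over exon sequence. Of the 67 copies inside genes, 54 were antisense to the gene, 12 were in its sense and 1 lay in genes of both strands. The *Pld6* KO level was 0.424 (95% Wilson interval 0.412 to 0.436) between genes, 0.290 (0.268 to 0.314) in introns and 0.362 (0.320 to 0.407) over exons. The WT levels were 0.783, 0.806 and 0.884. Antisense copies had 0.275 (0.254 to 0.298) in *Pld6* KO and sense copies 0.519 (0.464 to 0.575), but only 5 sense copies had enough calls. Of the 27 copies in introns with enough calls, 20 were decreased in *Pld6* KO (74.1%, 55.3% to 86.8%), and of the 114 between genes 62 were (54.4%, 45.3% to 63.2%), with overlapping intervals.

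Within 5 kb of an annotated gene start lay 31 copies, 14 of them with enough calls. Besides the *Pde12* copy, the most deeply covered was the chr6:100471229-100471523 copy, which overlaps exon sequence of *Gm38868*, 1990 bp from its start. It kept most of its methylation in *Pld6* KO (0.784) but not in *Dnmt3l* KO (2 of 11 calls). At chr12:12390481-12390762, in an intron of *4921511I17Rik* and 1713 bp from its start, methylated calls were 22 of 28, 5 of 51 and 0 of 30 in the 3 libraries. At chr17:75554980-75555284, 3034 bp from the start of *Fam98a*, the calls were 12 of 12, 31 of 63 and 2 of 23. A copy antisense in an intron of *Fbxo15*, an F-box gene, and 3246 bp from the start of *Timm21*, a mitochondrial import gene, had 25 of 33, 7 of 49 and 0 of 28. All of these were below WT in *Dnmt3l* KO, and in *Pld6* KO their decreases ranged from 0.157 to 0.883.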

How the data were processed

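Spermatogonia of WT, *Pld6* KO and *Dnmt3l* KO mice (1 library each) were analysed. The authors trimmed the reads and mapped them with Bismark to mm10, per the labels and the study's methods. The authors deposited 2 counts per CpG site, of methylated calls and of unmethylated ones, beside a fraction, the site's level, which equalled their ratio. Whether the calls of both strands were joined, and whether duplicates were removed, is not given in the sources used here. Listed sites had a mean of 3.01 calls (WT), 3.95 (*Pld6* KO) or 1.86 (*Dnmt3l* KO), so that levels were pooled.

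Copies were located in GRCm38 (mm10) with blastn 2.17.0 (e-value 1e-10), using the amplicon with converted bases put back. Levels are pooled calls with 95% Wilson intervals, and differences have Newcombe intervals. The counting variance taken off the spread was level × (1 - level) / (calls - 1) per copy. Flanks were 0 to 0.5, 0.5 to 2 and 2 to 5 kb. Genes and gene starts came from the RefSeq annotation of GRCm38. Copies were named by rank among those with at least 10 calls in each library (5 largest and 5 smallest differences for *Pld6* KO, 3 and 3 for *Dnmt3l* KO, ties to the copy with more calls) and, with at least 5 calls, as the 5 most covered within 5 kb of a gene start. Members and lists were chosen with earlier results of these data known. Calculations used Python 3.11.15 with numpy 2.4.6 and pandas 2.3.3 and were tested on simulated data. Alternatives changed the identity, extent, call minimum, decrease, sites, chromosomes, flanks and spacing.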

Additional observations from a re-analysis of the deposited data

How the results depend on the processing

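With at least 95% identity only 3 copies were left, all lone, and most values moved outside their intervals. WT, *Pld6* KO and *Dnmt3l* KO then had levels of 0.967, 0.524 and 0.0488, both over all and over lone copies, and the standard deviation 0.0296, 0.439 and 0.105. The share decreased was 66.7% and 100%, and the difference from WT up to 0.5 kb was 0.714 and 1 upstream and 0.391 and 1 downstream (*Pld6* KO and *Dnmt3l* KO). From 2 to 5 kb downstream, WT minus *Pld6* KO turned from -0.0176 to 0.0696. The small number of copies limits these values. With sites that had calls in all 3 libraries, the *Pld6* KO level was 0.378 (0.349 in lone copies) and the *Dnmt3l* KO level of paired copies 0.271. With the mean over copies, the *Dnmt3l* KO level was 0.147. A decrease of 0.2 gave 71.8% for *Pld6* KO, and one of 0.5 gave 43.0% and 74.5%. With copies of at least 5 calls, the *Pld6* KO difference up to 0.5 kb downstream was 0.371, and with lone copies that of *Dnmt3l* KO was 0.714. Counting lone copies with a partner match of at least 80% identity over 50% of the amplicon as paired, which was chosen after seeing the data, gave 0.347 for lone copies in *Pld6* KO. In tiles with at least 8 CpG sites the background was 4.24% and 46.2%. Of 168 values, 122 lay within the interval of the reported one. Besides the sign change above, WT minus *Pld6* KO from 2 to 5 kb upstream went from 0.00451 to -0.00905 with sites that had calls in all 3 libraries, and both intervals include 0. No value left its interval when X and Y copies were added or sites with more than 20 calls left out, of which the copies held 0. No paired analysis was possible because 1 library per genotype was analysed. Depth limits single copies most in *Dnmt3l* KO, and reads that could not be placed in a single copy are not counted.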

Other observations

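On the X chromosome, 28 copies met the same criteria, 7 of them with at least 5 calls in each library. WT had a pooled level of 0.735 at these copies (166 calls, 95% Wilson interval 0.663 to 0.796). The level was 0.328 (326 calls, 0.280 to 0.381) for *Pld6* KO, and for *Dnmt3l* KO it was 0.238 (105 calls, 0.167 to 0.328). The WT interval reaches that of the autosomal copies, whereas the *Pld6* KO level lay below and the *Dnmt3l* KO level above theirs. The single copy on the Y chromosome had 13 of 13 methylated calls in WT and 10 of 27 in *Pld6* KO, while *Dnmt3l* KO had 0 calls there.

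Among the lone copies, 15 had a weaker match to the LTR (at least 80% identity and 50% of the amplicon's length) at the distance of a partner, a grouping chosen after seeing the data. Their level in *Pld6* KO was 0.547 (95% Wilson interval 0.502 to 0.592), and in the 165 lone copies without such a match it was 0.347 (0.334 to 0.360). In *Dnmt3l* KO the levels were 0.214 (0.148 to 0.299) and 0.0697 (0.0583 to 0.0833), while in WT they were 0.802 and 0.770. Of the 10 copies with a weaker match and enough calls, 2 were decreased by at least 0.3 in *Pld6* KO, and of the 92 without one, 57 were (62.0%).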
